A study of Mus musculus with 15 samples.

Results

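The acetylcholine receptor genes followed here were 9 genes chosen by name: the muscarinic receptors Chrm1, Chrm2, Chrm3 and Chrm4, and the nicotinic receptor subunits Chrna3, Chrna4, Chrna5, Chrna7 and Chrnb2. They were 9 of the 56748 genes in the count table, all 9 were also among the 45315 genes with a deposited variance-stabilized value, and all 9 were among the 22998 genes that passed the expression filter. Every one of them had counts in each of the 15 libraries, the fewest being 17 counts of Chrna3 in iTBS 3. RNA was sequenced in bulk from the cortex of C57BL/6J mice, a wild-type strain, 3 hours after a single session of repetitive transcranial magnetic stimulation, in which a coil held over the head induces currents in the brain. The groups were intermittent theta-burst stimulation (iTBS), continuous theta-burst stimulation (cTBS) and sham stimulation, with 5 animals each and no transgene in any group. No label used here states the age of the animals. The titles of the samples place the tissue in somatosensory cortex and the description of the study places it in sensorimotor cortex.

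The libraries held 15385070 to 47807723 counts, and the spread between animals was 20.1% (biological coefficient of variation). Markers of excitatory cortical neurons summed to 4242 to 6256 CPM (counts scaled to equal library size) in the 15 libraries, and none was without counts. Markers of striatal projection neurons, which lie below the cortex, ranged from 395 to 1716 CPM in sum, and thalamic markers stood apart in sham 2 (343 CPM against a median of 96.0 over all libraries). Both regions carry acetylcholine receptors of their own, and these levels are given beside the results they move with. In bulk tissue, fewer cells of a type and less RNA per cell cannot be told apart. The exons of Chrm1, Chrm2 and Chrnb2 share 329, 142 and 1365 bases with genes on the opposite strand (Gm22820, 9330158H04Rik and Adar, by GENCODE M21). The strand setting of the counting was not given, so the counts of these 3 genes are uncertain to that extent.

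Acetylcholine reaches the cortex mainly through axons of basal forebrain neurons and acts on receptors of 2 kinds. Muscarinic receptors couple to G proteins: those encoded by Chrm1 and Chrm3 act through Gq and phospholipase C and generally excite cortical neurons, while those encoded by Chrm2 and Chrm4 act through Gi and Go, lower cyclic AMP and often curb transmitter release. Nicotinic receptors are cation channels built of subunits around a pore. In cortex the chief forms are the high-affinity receptor of the Chrna4 and Chrnb2 subunits, in which the Chrna5 subunit can be an accessory, and the fast, calcium-permeable receptor made of Chrna7 subunits.

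Promoter sequences are shown for the 4 genes on which the results below turn: Chrm4, with the smallest p of the 9 in any comparison, Chrna7, whose iTBS and sham values did not overlap, and Chrm2 and Chrna4, which varied together among animals. Each is the 250 bases before the transcription start in RefSeq (GRCm38.p6, an earlier assembly than the GRCm39 of the counts), written 5′ to 3′ on the strand of the gene. The bases that follow the window were found in a GENCODE M21 transcript of the gene for Chrna7, Chrm2 and Chrna4. For Chrm4 they were not found, so its start lacks that check. The windows are chr2:91921939-91922188 on the plus strand for Chrm4, chr7:63212527-63212776 on the minus strand for Chrna7, chr6:36387834-36388083 on the plus strand for Chrm2 and chr2:181039178-181039427 on the minus strand for Chrna4. Capitals mark GC boxes (GGGCGG or its complement), the EGR site (GCGNGGGCG) and the E-box (CACGTG), searched on both strands. An EGR site can overlap a GC box.
Chrm4: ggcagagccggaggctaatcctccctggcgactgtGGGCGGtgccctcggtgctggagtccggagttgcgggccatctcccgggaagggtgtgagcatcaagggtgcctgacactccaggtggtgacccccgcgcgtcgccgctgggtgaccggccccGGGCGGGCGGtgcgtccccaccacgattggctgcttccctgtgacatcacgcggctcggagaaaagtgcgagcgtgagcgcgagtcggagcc
Chrna7: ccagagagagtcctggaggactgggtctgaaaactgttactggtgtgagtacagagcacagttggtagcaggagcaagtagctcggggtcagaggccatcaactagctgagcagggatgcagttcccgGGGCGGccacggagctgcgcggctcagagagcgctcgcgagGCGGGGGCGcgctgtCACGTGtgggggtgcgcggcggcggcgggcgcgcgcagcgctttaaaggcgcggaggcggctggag
Chrm2: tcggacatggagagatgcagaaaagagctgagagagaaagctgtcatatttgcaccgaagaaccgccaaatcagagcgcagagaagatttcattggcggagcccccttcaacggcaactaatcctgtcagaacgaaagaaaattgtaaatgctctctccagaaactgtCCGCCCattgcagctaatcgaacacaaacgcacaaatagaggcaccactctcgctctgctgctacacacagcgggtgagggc
Chrna4: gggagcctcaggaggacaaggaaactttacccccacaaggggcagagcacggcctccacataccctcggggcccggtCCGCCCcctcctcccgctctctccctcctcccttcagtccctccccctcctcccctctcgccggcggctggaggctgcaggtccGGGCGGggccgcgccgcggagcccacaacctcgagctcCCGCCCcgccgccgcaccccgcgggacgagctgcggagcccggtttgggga

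Of the 9 genes, 8 had such a window, Chrna5 had 2 and Chrm1 had none in that set. GC boxes, the sites bound by SP1-type factors at many CpG-rich promoters, were found 3 times in Chrm4, 3 times in Chrna4 and once each in Chrna7 and Chrm2, and 32.7% of all 32851 windows held at least 1. The Chrna7 window also held 1 EGR site, the sequence recognised by the activity-induced factor EGR1, and 1 E-box. Of all windows, 4.70% held such an EGR site and 6.02% such an E-box. The full cyclic AMP response element TGACGTCA, present in 1.55% of all windows, and the AP-1 site TGANTCA, present in 6.75%, were not among the letters of any of the 9 windows of the receptor genes. GC content was 70.0% in Chrm4, 67.2% in Chrna7 and 74.4% in Chrna4, against 50.0% in Chrm2 and a median of 52.4% over all windows.

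Chrm1, the main excitatory muscarinic receptor of the forebrain, was the most abundant of the genes in every library. Per kilobase of exon, its mean level over the 15 libraries was 32.4 CPM, followed by Chrm3 at 11.8, Chrna4 at 11.3, Chrnb2 at 6.72, Chrm2 at 4.74, Chrna7 at 3.64, Chrna5 at 1.03 and Chrna3 at 0.256. Neighbours in this order kept their places in 15 of 15 libraries except Chrm3 and Chrna4, where Chrm3 was the higher in 11 of 15 and the levels differed by a ratio of 1.04. Exon lengths were those of GENCODE M21 on the earlier assembly GRCm38, which may differ from the annotation of the counting. Chrm4 was left out of the order because its annotated exons of 1440 bases hold only the coding sequence, so that its level per length is not comparable. The receptor genes also differed in how steady they were: over the 15 libraries the coefficient of variation in CPM was 5.70% for Chrna7, 6.88% for Chrnb2 and 8.54% for Chrna4, against 12.3% for Chrm1, 17.6% for Chrm4, 19.9% for Chrna5 and 40.2% for Chrna3.

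**Figure D1:**
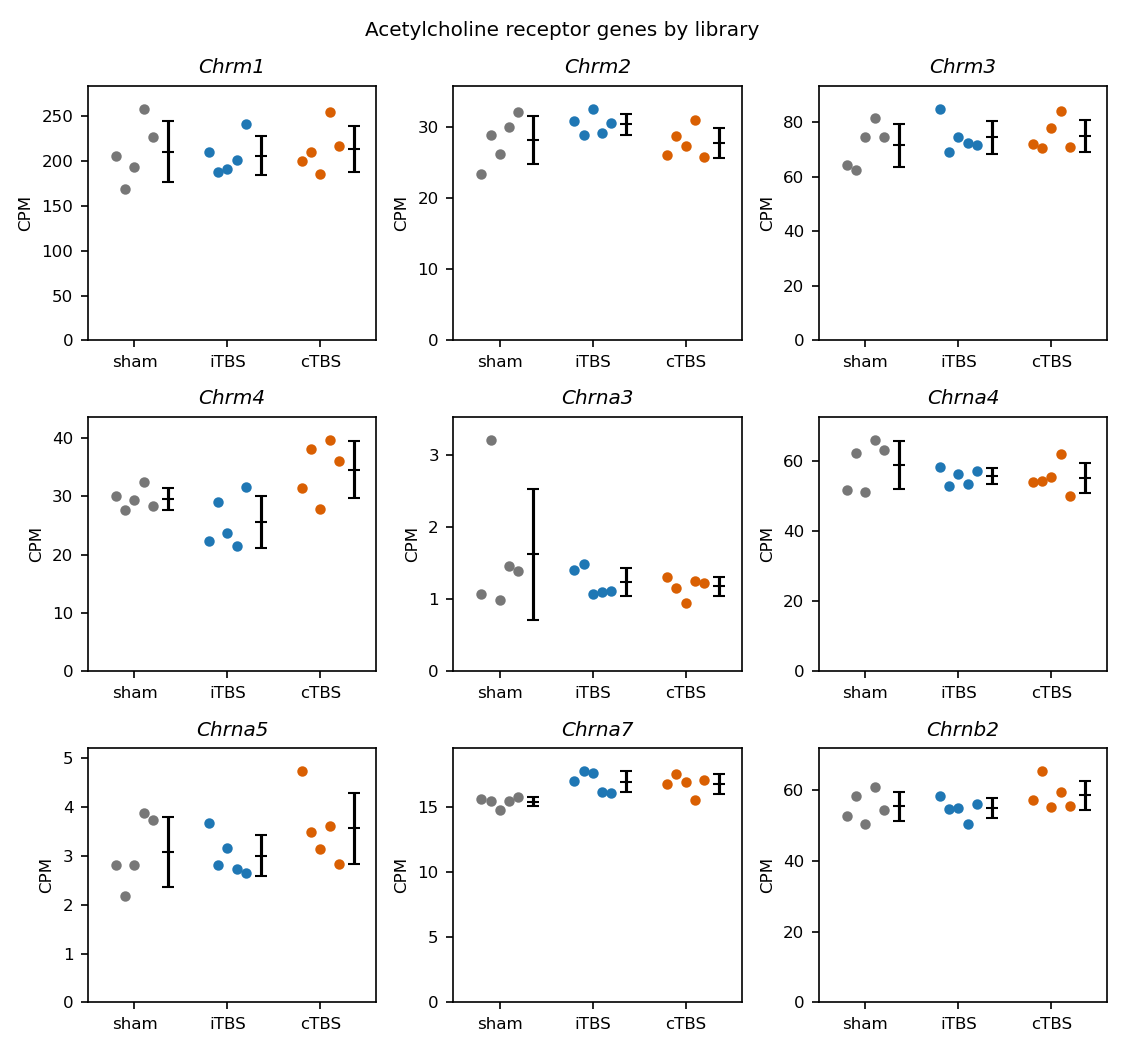
Levels of the 9 receptor genes in CPM, 1 panel per gene. Each point is 1 library, and the black bar is the mean ± SD of the 5 libraries of a group; Chrm4 lies lowest in iTBS and highest in cTBS, and sham 2 stands apart in Chrna3 at 3.21 CPM.

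The intermittent protocol was first set against sham. None of the 9 passed adjustment over all genes (edgeR, every adjusted p = 1.00), and 0% of the 22998 genes did. DESeq2 called 0 of the 9 and 0 genes in all. By sign, 3 were higher and 6 lower, with a median log2 fold change of -0.03, where 49.5% of all genes lay above 0 and 50.5% below. At unadjusted p under 0.05 there was 1 of the 9, Chrna7, which was higher, and 1.93% of all genes were at such a p in either direction (0.952% higher and 0.974% lower). Chrna7 was also the only one of the 9 whose iTBS and sham values did not overlap, as was the case for 0.452% of all genes. The muscarinic genes had a median of 0.02 and the nicotinic genes one of -0.04.

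The continuous protocol was then set against sham. Again none of the 9 passed adjustment (edgeR), and 0% of all genes did. DESeq2 called 0 of the 9 and 0.799% of the 45298 genes it tested, which were not filtered as for edgeR. By sign, 6 were higher and 3 lower, with a median log2 fold change of 0.07 against -0.02 over all genes, of which 46.5% were higher and 53.5% lower. With DESeq2 or RLE scaling Chrm2 turned, and 7 were higher and 2 lower. Chrna7, higher in cTBS, was the 1 gene of the 9 at unadjusted p under 0.05, a share below the 24.4% of all genes at such a p (6.8% higher and 17.6% lower). No member had values in 1 group that lay wholly above or below those of the other, as 1.34% of all genes did. The unadjusted p of Chrm4, which was higher in cTBS, was 0.0574. The sham libraries serve both of these comparisons, so their fold changes share the error of the sham means.

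The direct comparison of iTBS with cTBS asked whether the protocols differed from each other. Chrm4 was lower after iTBS than after cTBS by a log2 fold change of -0.43 ± 0.11 (SE), with a 95% interval of -0.67 to -0.20. It did not pass adjustment over all genes (edgeR, unadjusted p = 0.00127, adjusted p = 0.0838), nor did any of the other 8, and 0% of all genes passed. At unadjusted p under 0.05, Chrm4 was the 1 gene of the 9, while 30.6% of all genes were at such a p (20% higher and 10.6% lower). Of all genes, 1.28% had a p no larger than that of Chrm4, which is itself the smallest of the 9. The signs were 4 higher and 5 lower, with a median of -0.01 against 0.03 over all genes, of which 53.9% were higher and 46.1% lower. With DESeq2 or RLE scaling Chrna4 and Chrna7, both near 0, turned, and 2 were higher and 7 lower.

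**Figure D2:**
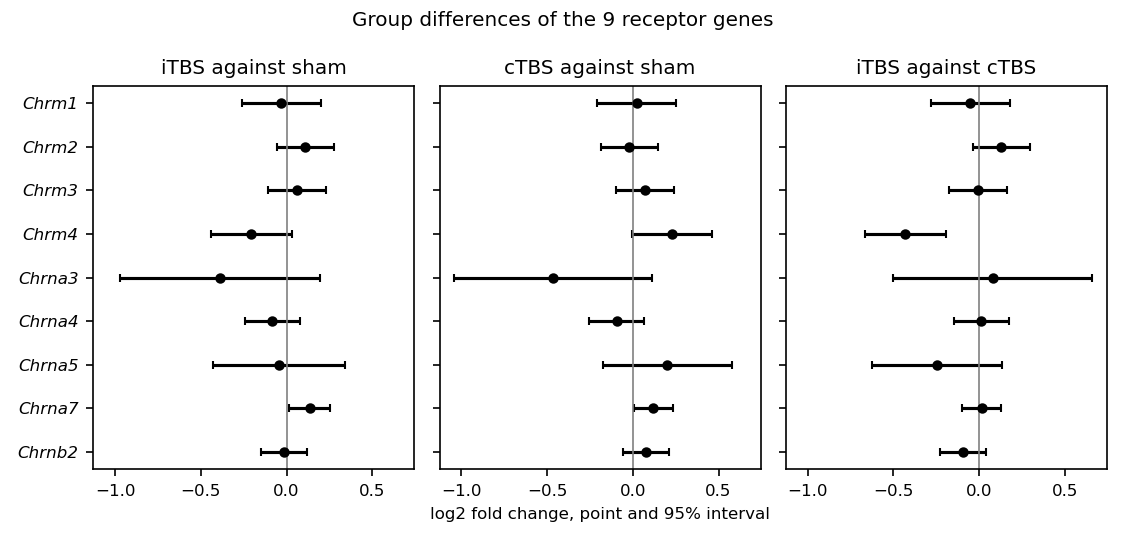
Log2 fold changes of the 9 receptor genes in the 3 comparisons, with 95% intervals from edgeR. The interval of Chrm4 for iTBS over cTBS (-0.67 to -0.20) and those of Chrna7 against sham (0.02 to 0.25 for iTBS, 0.00414 to 0.24 for cTBS) leave out 0, and all the others include it.

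Of the receptors that couple to Gq, Chrm1 had group means of 210.4 ± 34.0 CPM in sham, 206 ± 21.6 in iTBS and 214 ± 25.9 in cTBS (SD, n = 5 each). By library it was at 205, 169, 193, 258 and 227 CPM in sham 1 to 5, at 209.8, 187, 191, 201 and 241 CPM in iTBS 1 to 5 and at 200.1, 211, 186, 255 and 217 CPM in cTBS 1 to 5. The 3 groups overlapped throughout, with sham holding both the lowest and the highest library. The log2 fold change was -0.03 ± 0.11 for iTBS over sham (95% interval -0.26 to 0.20), 0.02 ± 0.11 for cTBS over sham (-0.21 to 0.25) and -0.05 ± 0.11 for iTBS over cTBS (-0.28 to 0.18). Chrm3, less abundant than Chrm1 in every library, was at 64.3, 62.3, 74.7, 81.3 and 74.7 CPM in sham, 84.8, 69.1, 74.6, 72.5 and 71.7 CPM in iTBS and 71.9, 70.4, 77.8, 84.1 and 70.8 CPM in cTBS. Its groups overlapped as well, and its fold changes were 0.06 ± 0.08 for iTBS over sham, 0.07 ± 0.08 for cTBS over sham and -0.01 ± 0.08 for iTBS over cTBS.

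Chrm2, the Gi-coupled receptor found on many cholinergic and other nerve endings as an autoreceptor or heteroreceptor, was at 23.4, 28.8, 26.1, 29.98 and 32.1 CPM in sham, 30.8, 28.8, 32.4, 29.2 and 30.5 CPM in iTBS and 26.0, 28.7, 27.2, 30.9 and 25.7 CPM in cTBS. The iTBS libraries lay close together, with sham 5 above 4 of them and iTBS 3 the highest of all 15. The fold changes of Chrm2 were 0.11 ± 0.08 for iTBS over sham, -0.02 ± 0.08 for cTBS over sham and 0.13 ± 0.08 for iTBS over cTBS (edgeR, adjusted p = 0.266 for the last).

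Chrm4 encodes the other Gi-coupled receptor, best known for its abundance in striatal projection neurons and also present in cortex. It was at 29.97, 27.6, 29.3, 32.5 and 28.3 CPM in sham 1 to 5. In iTBS 1 to 5 it was at 22.4, 29.0, 23.7, 21.4 and 31.5 CPM, and in cTBS 1 to 5 at 31.3, 38.0, 27.8, 39.6 and 36.1 CPM. In iTBS, 3 libraries lay below every sham library and the other 2 within the sham range, while in cTBS 3 libraries lay above every sham library and the other 2 within that range. The iTBS and cTBS groups overlapped through iTBS 2 and iTBS 5, which were above cTBS 3, and iTBS 5 was also above cTBS 1. The group means were 25.6 ± 4.41 CPM in iTBS, 29.5 ± 1.89 in sham and 34.6 ± 4.88 in cTBS (SD, n = 5 each). Against sham, the log2 fold change was -0.21 ± 0.11 for iTBS (edgeR, unadjusted p = 0.0854, adjusted p = 1.00) and 0.23 ± 0.11 for cTBS (unadjusted p = 0.0574, adjusted p = 0.216). Relative to Chrm1 in the same library, the CPM ratio of Chrm4 was 0.142 ± 0.0170 in sham, 0.125 ± 0.0199 in iTBS and 0.162 ± 0.0122 in cTBS.

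The call on Chrm4 between iTBS and cTBS depended on the analysis, while its sign was negative in each setting tried. DESeq2 called it, at -0.48 (adjusted p = 0.0150), in a comparison where it called 2520 of the 45298 genes it tested (5.56%). These include genes of few counts that the edgeR filter removed, so this share is not comparable with the edgeR shares. With edgeR it passed without cTBS 5 (-0.42, adjusted p = 0.0371), without iTBS 1 (-0.43, adjusted p = 0.0317) and without sham 4 (-0.47, adjusted p = 0.0301), where 14.4%, 19.1% and 15.5% of all genes passed. Over its alternatives the adjusted p ran from 0.0150 to 0.919.

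The mean levels of nuclear RNA and of markers of other cells were also unequal between iTBS and cTBS. Of the 10 nuclear-retained RNAs, which include Malat1 and Meg3, all 10 were higher in iTBS than in cTBS (median log2 fold change 1.02) and 9 were lower in cTBS than in sham (median -0.998). Their level, as mean log2 CPM, was 7.27 ± 0.67 in sham, 7.33 ± 0.49 in iTBS and 6.45 ± 0.54 in cTBS. Several cell type lists lay the other way, with lower values in iTBS than in cTBS for 10 of 10 oligodendrocyte, 8 of 8 astrocyte, 7 of 8 microglial and 10 of 11 interneuron markers (medians -0.26, -0.18, -0.19 and -0.21). So did 14 of 14 striatal projection neuron and 9 of 9 layer 6 and subplate markers (medians -0.55 and -0.22). Higher in iTBS were 7 of 8 endothelial and mural, 6 of 8 upper layer and 6 of 8 excitatory neuron markers (medians 0.11, 0.05 and 0.03). None of these genes passed adjustment (edgeR). The level of the 14 striatal projection neuron markers was 4.09 ± 0.95 in sham, 4.45 ± 0.68 in iTBS and 5.02 ± 0.72 in cTBS, and their summed CPM ranged from 395 to 1372, 591 to 1716 and 556 to 1645. The marker with the highest mean was Pde10a, and none was at 0. The level of the layer 6 and subplate neuron markers was 4.36 ± 0.06 in sham, 4.25 ± 0.16 in iTBS and 4.50 ± 0.15 in cTBS, in the same order as Chrm4. This order was not particular to layer 6. In sham, iTBS and cTBS, the oligodendrocyte level was 6.66, 6.60 and 6.87, the astrocyte level 7.64, 7.60 and 7.77 and the interneuron level 5.59, 5.57 and 5.76. The microglial level, at 4.81, 4.82 and 4.98, did not have this order. With the striatal level as a covariate, the iTBS over cTBS difference of Chrm4 was -0.38 (adjusted p = 0.0871, edgeR). With the nuclear RNA level it was -0.36 (adjusted p = 0.578), and with both levels together it was -0.28 (adjusted p = 0.757). With the layer 6 level, added as a covariate once the data had been seen, it was -0.22 (adjusted p = 0.919). In the last pair of fits the difference was smaller by over 1.5 times. These fits also changed the whole table. Without a covariate, 7047 of 22998 genes were at unadjusted p under 0.05 between iTBS and cTBS (edgeR). There were 7213 with the striatal level, 1746 with the nuclear RNA level, 1488 with both and 841 with the layer 6 level.

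**Figure D3:**
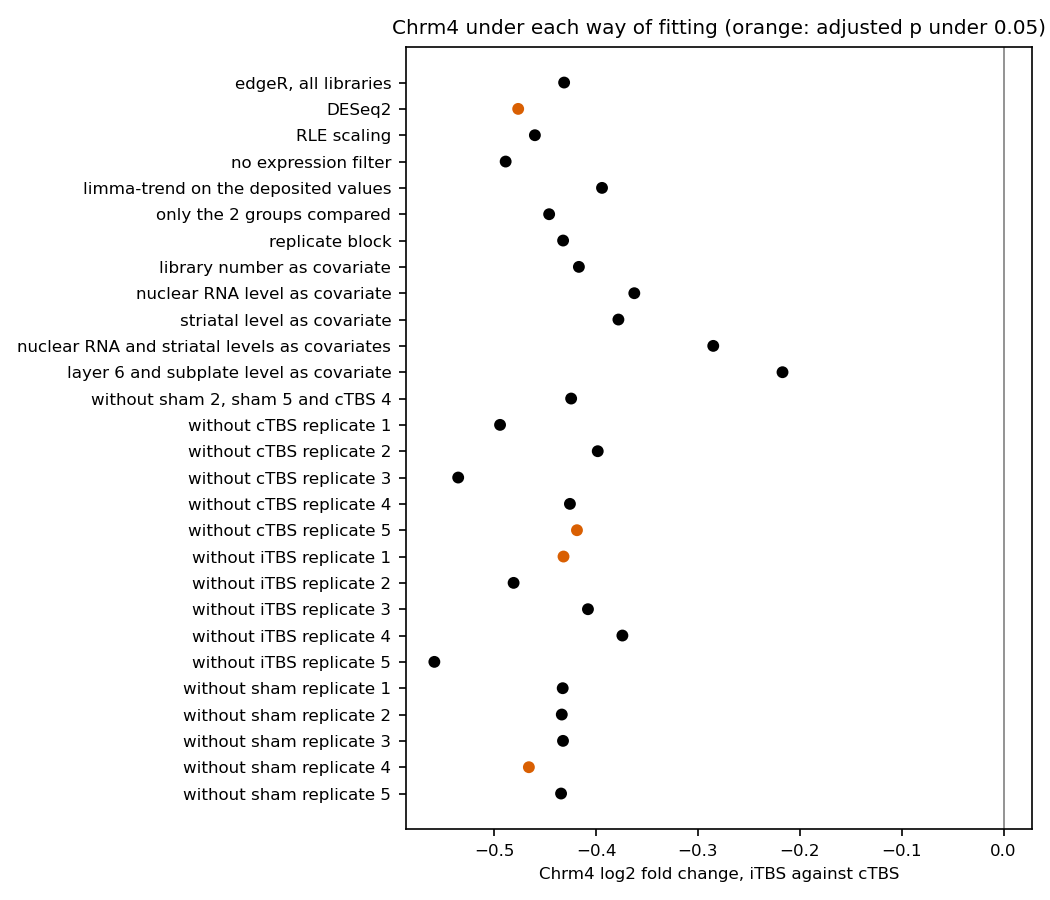
Log2 fold change of Chrm4 for iTBS over cTBS in each analysis setting, with orange points where the adjusted p was under 0.05. The points lie between -0.559 and -0.217, all below 0, and the 3 smallest differences are those with the nuclear RNA level, with the nuclear RNA and striatal levels, or with the layer 6 level as covariates.

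The subunits of the high-affinity nicotinic receptor had overlapping groups in every comparison. Chrna4, which with Chrnb2 forms the agonist-binding site, was at 51.9, 62.4, 51.2, 66.0 and 63.3 CPM in sham, 58.4, 53.1, 56.4, 53.5 and 57.1 CPM in iTBS and 54.1, 54.5, 55.6, 62.1 and 50.0 CPM in cTBS. Sham spanned the widest range, and every iTBS library lay inside it. Its fold changes were -0.08 ± 0.08 for iTBS over sham, -0.09 ± 0.08 for cTBS over sham and 0.01 ± 0.08 for iTBS over cTBS.

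Chrnb2, the partner subunit, was at 52.8, 58.4, 50.5, 60.8 and 54.5 CPM in sham, 58.3, 54.7, 54.9, 50.5 and 56.2 CPM in iTBS and 57.1, 65.4, 55.3, 59.4 and 55.6 CPM in cTBS. The highest library was cTBS 2, and the 3 groups overlapped. Its fold changes were -0.01 ± 0.06 for iTBS over sham, 0.08 ± 0.06 for cTBS over sham and -0.09 ± 0.06 for iTBS over cTBS, with 95% intervals of -0.15 to 0.12, -0.06 to 0.21 and -0.23 to 0.04. Per kilobase of exon, the ratio of Chrna4 to Chrnb2 was 1.77 ± 0.115 in sham, 1.69 ± 0.0548 in iTBS and 1.58 ± 0.140 in cTBS.

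Chrna5, the accessory subunit that in cortex is known from deep-layer pyramidal neurons, was low, with 50 to 195 counts per library. It was at 2.81, 2.17, 2.81, 3.88 and 3.74 CPM in sham, 3.66, 2.81, 3.16, 2.73 and 2.65 CPM in iTBS and 4.73, 3.48, 3.14, 3.61 and 2.82 CPM in cTBS. The highest value was in cTBS 1 and the lowest in sham 2. The fold changes were -0.04 ± 0.18 for iTBS over sham, 0.20 ± 0.18 for cTBS over sham and -0.25 ± 0.18 for iTBS over cTBS, and the last had an interval of -0.62 to 0.13.

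Chrna7, the subunit of the homomeric channel, was the steadiest of the 9 genes. It was at 15.6, 15.5, 14.8, 15.5 and 15.8 CPM in sham, 17.0, 17.8, 17.6, 16.2 and 16.1 CPM in iTBS and 16.8, 17.5, 16.9, 15.5 and 17.1 CPM in cTBS. All 5 iTBS libraries were above all 5 sham libraries, and 4 of the 5 cTBS libraries were too, with cTBS 4 inside the sham range. The log2 fold change was 0.13 ± 0.06 for iTBS over sham (edgeR, unadjusted p = 0.0271, adjusted p = 1.00, rank 199 of 22998 by p) and 0.12 ± 0.05 for cTBS over sham (unadjusted p = 0.0432, adjusted p = 0.194). Both are differences from the same sham mean of 15.4 ± 0.379 CPM (SD, n = 5), and neither passed. Between iTBS and cTBS the difference was 0.01 ± 0.05, with an interval of -0.10 to 0.13. Without each library in turn, the iTBS over sham value lay between 0.12 and 0.15.

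Chrna3, best known from autonomic ganglia and the medial habenula, where it joins Chrnb4, was the scarcest member. Its counts were 30, 83, 19, 66 and 43 in sham, 52, 50, 17, 35 and 35 in iTBS and 54, 49, 34, 52 and 45 in cTBS. As CPM, sham 2 was at 3.21 and the other 14 libraries at 0.954 to 1.497, so that 1 library set the sham mean of 1.63 ± 0.908. The log2 fold change was -0.39 ± 0.28 for iTBS over sham and -0.46 ± 0.27 for cTBS over sham. Without sham 2 these were 0.0047 and -0.07. Several genes of the habenula and thalamus were high in the same library. The level of the habenular markers other than Chrna3 and Chrnb4 was 3.71 in sham 2 and at most 2.99 in any other library. Chrnb4 had 41 counts there and 0 to 17 elsewhere. Gpr151, a habenular receptor gene, was at 2.82 CPM against 0.388 to 1.66, whereas Tac2, another habenular marker, was at 5.61 CPM there and at 2.63 to 5.68 elsewhere. In the thalamic list, the kinase gene Prkcd was at 65.1 CPM against 3.86 to 14.7. The level of the thalamic markers was 5.16 there and at most 3.62 in any other library, and their part in the Chrna3 value was not tested.

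Deviations from the group means were then compared among the 15 animals, as log2 CPM, between each receptor gene and 6 marker levels (54 relations) and among the receptor genes (36 pairs). Such values share the sequencing depth and the dissection of a library. Chrm1 followed the level of upper layer neuron markers (Pearson r = 0.957, permutation p = 1e-05, the smallest that 100000 permutations can give, adjusted p = 0.000540; Spearman rho = 0.936, permutation p = 2e-05). When sham 4 and cTBS 4, the 2 farthest from the median level, were left out, r was 0.916. Upper layer markers were at 6.77 ± 0.13, 6.81 ± 0.09 and 6.77 ± 0.11 in sham, iTBS and cTBS, so the animals with more of these transcripts were spread over the groups.

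Another 4 relations with marker levels passed adjustment over the 54, and each lost its call without the 2 farthest libraries. Chrna3 followed the thalamic level (r = 0.893, permutation p = 0.000280, adjusted p = 0.00630; rho = 0.675, permutation p = 0.00735). Without sham 2 and sham 4, the 2 farthest once group means were removed, r was 0.580. Of these, only sham 2 stood apart in thalamic level itself, at 5.16. Sham 4, at 3.23, lay beside the other sham libraries (3.24 to 3.25), and leaving out sham 2 alone was not tried for this relation. Chrna4 ran against the level of nuclear-retained RNAs such as Malat1 and Meg3 (r = -0.806, permutation p = 0.000350, adjusted p = 0.00630; rho = -0.879, permutation p = 6e-05), with r = -0.663 without sham 4 and cTBS 4. Chrm3 ran against the striatal level (r = -0.705, permutation p = 0.00368, adjusted p = 0.0449; rho = -0.761, permutation p = 0.00123), with r = -0.570 without sham 2 and iTBS 2. Chrnb2 followed the layer 6 level (r = 0.686, permutation p = 0.00416, adjusted p = 0.0449; rho = 0.725, permutation p = 0.00282), with r = 0.615 without iTBS 4 and cTBS 3.

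Within groups, Chrm4 did not pass with the striatal level (r = 0.400, permutation p = 0.141, adjusted p = 0.306; rho = 0.361, permutation p = 0.188; r = 0.468 without the 2 farthest libraries). Its relation with the layer 6 level (r = 0.568, permutation p = 0.0263, adjusted p = 0.122; rho = 0.425, permutation p = 0.117) did not pass either and had r = 0.066 without iTBS 4 and cTBS 3. Without removal of the group means, which leaves the differences between groups in, it passed (r = 0.764, permutation p = 0.000850, adjusted p = 0.0229). Among the 36 pairs of receptor genes, 1 passed: Chrm2 and Chrna4 (r = 0.864, permutation p = 4e-05, adjusted p = 0.00144; rho = 0.900, permutation p = 1e-05), with r = 0.859 without sham 1 and sham 5. In the promoter windows shown above, that of Chrm2 held 1 GC box and that of Chrna4 held 3. Such boxes were in 32.7% of all windows, and a link with this relation was not tested. Without removal of the group means, this pair had r = 0.678 (permutation p = 0.00563) and no longer passed (adjusted p = 0.203). The partners Chrna4 and Chrnb2 came next, at r = 0.644 (permutation p = 0.0102, adjusted p = 0.182; rho = 0.661, permutation p = 0.00903).

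**Figure D4:**
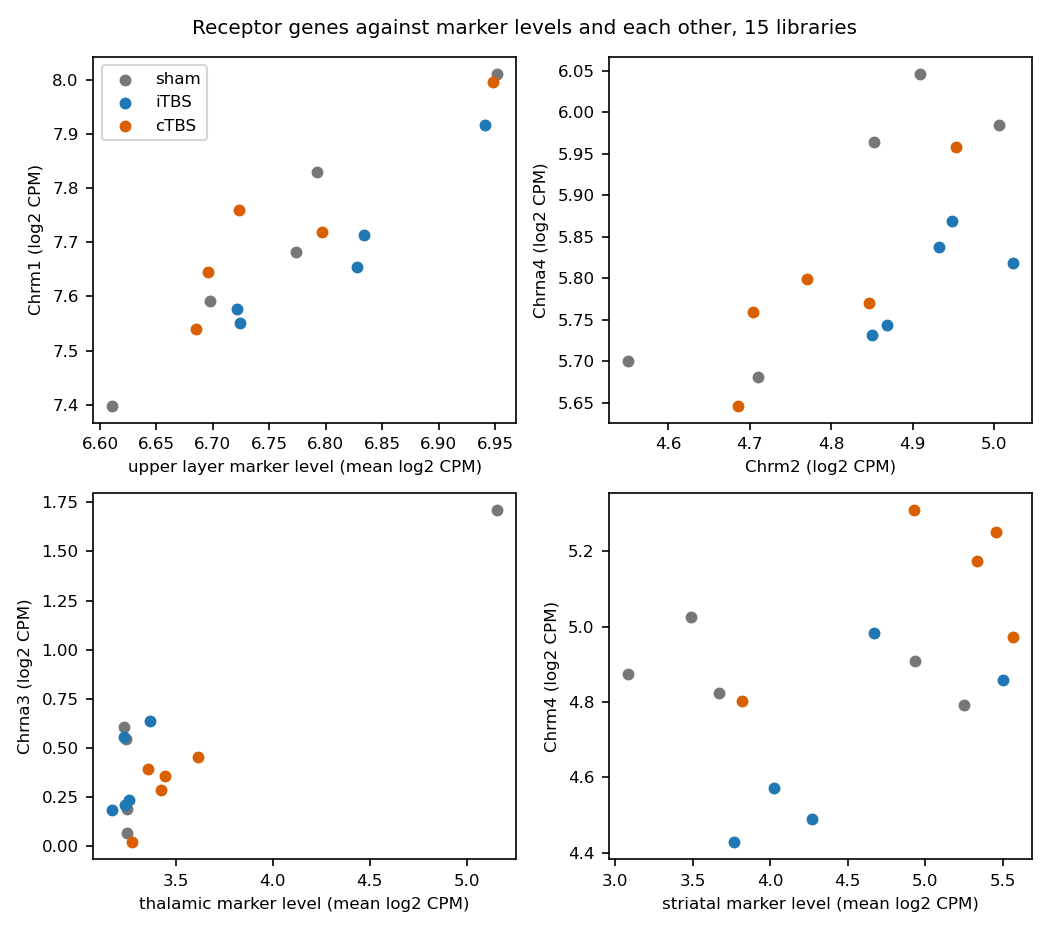
Values in log2 CPM, 1 point per library (n = 15), with the group means not removed. The panels show Chrm1 against the upper layer level, Chrna4 against Chrm2, Chrna3 against the thalamic level and Chrm4 against the striatal level. Chrm1 lies close to a line (r = 0.913 for the values as drawn), and the thalamic panel is drawn out by sham 2.

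The genes with the most similar profiles were taken as those with the highest Pearson r of log2 CPM over the 15 libraries among 16668 named genes with a mean of at least 1 CPM. For Chrm1 these were Rundc1 (r = 0.963), Mef2d (0.959) and Arhgap1 (0.958). Chrm4 was closest to Plk2 (0.910), Gpsm1 (0.901) and Sox8 (0.894). For Chrm3 they were Igfbp6 (0.959), Lasp1 (0.910) and Ttl (0.908), and for Chrm2 Pkd2l2 (0.853), Col8a1 (0.815) and Emb (0.788). Chrna3 was closest to Plekhg1 (0.888) and Tcf7l2 (0.880), which are on the thalamic marker list, and to Amotl1 (0.867). Among the other nicotinic genes, Chrna4 was closest to Pdp1 (0.888), Chrna5 to Nxph3 (0.884), Chrnb2 to Dgcr2 (0.921) and Chrna7 to Slc8b1, at the lowest value of the 9 first-ranked genes (0.781). The 99th percentile of r over the compared genes was 0.844 for Chrm1 and 0.525 for Chrna7, so the highest values are not comparable between receptor genes. All of these matches are descriptions over 15 points chosen as the largest of many, with no test.

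The genes around the receptors were counted from lists of the ligand's handling, the remaining receptor subunits, the assembly factors and Ly6 modulators of nicotinic receptors, and the signalling partners of muscarinic receptors. None of the 53 tested genes on these lists passed adjustment in any comparison (edgeR), as was the case for all genes. DESeq2 called Bche for cTBS over sham and Colq, Chrm5, Tmem35a, Rgs14, Gnai3, Gnai2 and Rgs2 between iTBS and cTBS. In these comparisons it called 0.799% and 5.56% of 45298 genes, a set that includes genes of few counts.

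The ligand is made by choline acetyltransferase (Chat), loaded into vesicles by Slc18a3, split by acetylcholinesterase (Ache) and recovered as choline by Slc5a7. Of the 8 tested genes of this list, 5 were higher and 3 lower in iTBS than in sham (median log2 fold change 0.17), where 49.5% of all genes were higher, and 7 were higher and 1 lower in cTBS than in sham (median 0.52 against -0.02 over all genes), where 46.5% were higher. At unadjusted p under 0.05 there was 1 higher in the first comparison, where 0.952% of all genes were, and 4 higher in the second, where 6.8% were. Bche, a second cholinesterase, was at 6.48, 9.63, 7.23, 8.54 and 6.82 CPM in sham, 10.01, 9.34, 8.41, 8.59 and 8.40 CPM in iTBS and 10.8, 9.90, 9.54, 9.67 and 9.85 CPM in cTBS. Of its 5 cTBS values, 4 were above every sham value, with a log2 fold change of 0.36 ± 0.10 against sham (edgeR, unadjusted p = 0.00291, adjusted p = 0.144).

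Chat was at 3.09, 4.29, 0.572, 0.799 and 1.07 CPM in sham, 1.52, 5.45, 0.949, 1.098 and 1.60 CPM in iTBS and 4.61, 6.85, 0.785, 2.43 and 4.40 CPM in cTBS. The spread inside each group was several-fold, and the libraries high in Chat were those high in the striatal marker Drd1, which was at 53.1, 66.7, 16.3, 20.4 and 24.6 CPM in sham, 32.6, 72.2, 26.9, 24.6 and 41.0 CPM in iTBS and 73.1, 73.2, 24.6, 50.1 and 64.8 CPM in cTBS. The cTBS against sham fold change was 0.96 ± 0.61 for Chat (adjusted p = 0.327, edgeR), 1.13 ± 0.49 for Slc18a3 (adjusted p = 0.176) and 0.86 ± 0.59 for Slc5a7 (adjusted p = 0.362). The 6 markers of striatal and basal forebrain cholinergic neurons, these 3 among them, summed to 2.81 to 21.3 CPM in sham, 4.92 to 20.6 in iTBS and 4.29 to 35.1 in cTBS, and the part of striatal tissue in these values was not tested. Ache varied less between libraries, with group means of 43.3 ± 3.45 CPM in sham, 42.6 ± 3.97 in iTBS and 48.1 ± 8.16 in cTBS, and a fold change of 0.15 ± 0.10 for cTBS over sham.

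Between iTBS and cTBS, where 53.9% of all genes were higher, 1 gene of the ligand list was higher and 7 lower (median -0.21 against 0.03 over all genes). The higher one was Colq, the collagen tail that anchors acetylcholinesterase to the matrix. It was at 2.41, 1.41, 2.02, 1.72 and 1.21 CPM in iTBS, 1.12, 0.640, 1.09, 1.08 and 0.977 CPM in cTBS and 1.01, 1.16, 0.624, 1.26 and 1.36 CPM in sham. All iTBS values were above all cTBS values, as the values of 1 group were above or below those of the other for 3.92% of all genes, and the log2 fold change was 0.83 ± 0.24 (edgeR, unadjusted p = 0.00348, adjusted p = 0.0838). Against sham it was 0.68 ± 0.25 for iTBS (unadjusted p = 0.0143) and -0.16 ± 0.25 for cTBS. Prima1, the membrane anchor of the same enzyme, was at 0.68 ± 0.30 for cTBS over sham (adjusted p = 0.179, edgeR) and -0.25 ± 0.29 between the protocols. The choline transporter gene Slc44a1 was at 0.15 ± 0.06 for cTBS over sham and -0.16 ± 0.06 for iTBS over cTBS (adjusted p = 0.0958).

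Of the 12 remaining receptor genes, 6 passed the expression filter. The others were near the limit of detection, with 2 counts of Chrnd, 4 of Chrna9, 37 of Chrna10, 41 of Chrng, 96 of Chrne and 130 of Chrnb4 over all 15 libraries. In iTBS over sham 1 of the 6 was higher and 5 lower, in cTBS over sham 1 was higher and 5 lower, and between iTBS and cTBS 2 were higher and 4 lower, with medians of -0.22, -0.12 and -0.03. Of all genes, 49.5%, 46.5% and 53.9% were higher in these comparisons. Under RLE or DESeq2 scaling 1 more was higher in cTBS than in sham and 1 more lower in iTBS than in cTBS. Chrm5, the last of the muscarinic receptors, was at 0.648, 0.735, 0.0520, 0.555 and 0.422 CPM in sham, 0.190, 0.270, 0.253, 0.314 and 0.319 CPM in iTBS and 0.388, 1.14, 0.477, 0.674 and 0.678 CPM in cTBS. Every iTBS value was below every cTBS value, and 3.92% of all genes had no overlap of these groups in either direction. Sham spanned the iTBS range and all of the cTBS values but that of cTBS 2, although sham 3 had a single count of the gene. The log2 fold change of Chrm5 was -1.31 ± 0.43 between the protocols (edgeR, adjusted p = 0.0859). Chrnb1, a muscle-type subunit, was at 2.69 ± 0.882 CPM in iTBS and 1.98 ± 0.185 in cTBS (0.45 ± 0.19, adjusted p = 0.135, edgeR). Chrnb3 was at 1.87 to 4.07 CPM over the 15 libraries, Chrna2 at 0.505 to 1.66, Chrna1 at 0.351 to 1.04 and Chrna6 at 0.163 to 0.529, with overlapping groups in each comparison.

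Nicotinic receptors need chaperones to assemble, and Ly6 proteins tether to them and tune their response. Of the 11 genes of this list, 4 were higher and 7 lower in iTBS than in sham (median -0.03), 10 higher and 1 lower in cTBS than in sham (median 0.14; 11 higher and 0 lower with DESeq2 or RLE scaling), and 1 higher and 10 lower in iTBS than in cTBS (median -0.16). Over all genes, 49.5%, 46.5% and 53.9% were higher in these comparisons and the medians were -0.000967, -0.02 and 0.03. At unadjusted p under 0.05 there were 0 in the first, 2 higher in the second, where 6.8% of all genes were, and 3 lower in the third, where 10.6% were. The gene with the smallest p was Tmem35a, which encodes NACHO, a chaperone of the Chrna7 and other nicotinic receptors. It was at 26.98, 31.3, 22.8, 29.0 and 30.5 CPM in sham, 26.6, 26.6, 23.8, 22.3 and 28.7 CPM in iTBS and 36.9, 39.3, 30.3, 33.0 and 29.3 CPM in cTBS. Every iTBS value was below every cTBS value, and 3.92% of all genes had no overlap of these groups in either direction. The log2 fold change of Tmem35a between iTBS and cTBS was -0.40 ± 0.10 (edgeR, unadjusted p = 0.000900, adjusted p = 0.0838). For cTBS over sham it was 0.26 ± 0.10 (adjusted p = 0.148). Ric3, another chaperone of Chrna7, was at 0.13 ± 0.06 for cTBS over sham (adjusted p = 0.195, edgeR) and 0.04 ± 0.06 for iTBS over sham.

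Of the Ly6 genes, Lynx1, which restrains nicotinic receptors in adult cortex, was abundant, at 354 ± 44.1 CPM in sham, 375 ± 35.8 in iTBS and 384 ± 36.02 in cTBS. Lypd1 was at 22.02 ± 5.57 CPM in sham, 21.4 ± 7.37 in iTBS and 29.7 ± 6.22 in cTBS, with -0.47 ± 0.21 between the protocols (adjusted p = 0.148, edgeR). Ly6g6e, at under 1 CPM in every group mean, was at -0.66 ± 0.27 (adjusted p = 0.118). The other 4, Ly6h, Lypd6, Lypd6b and Ly6e, were at -0.29 ± 0.16, -0.16 ± 0.11, -0.23 ± 0.11 and 0.06 ± 0.14 between the protocols, and their groups overlapped. The last 2 genes of the list are not of the Ly6 family: Nptn, an adhesion protein of the immunoglobulin superfamily, was at -0.12 ± 0.08 and Vsnl1, a neuronal calcium sensor, at -0.12 ± 0.10, also with overlapping groups.

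**Figure D5:**
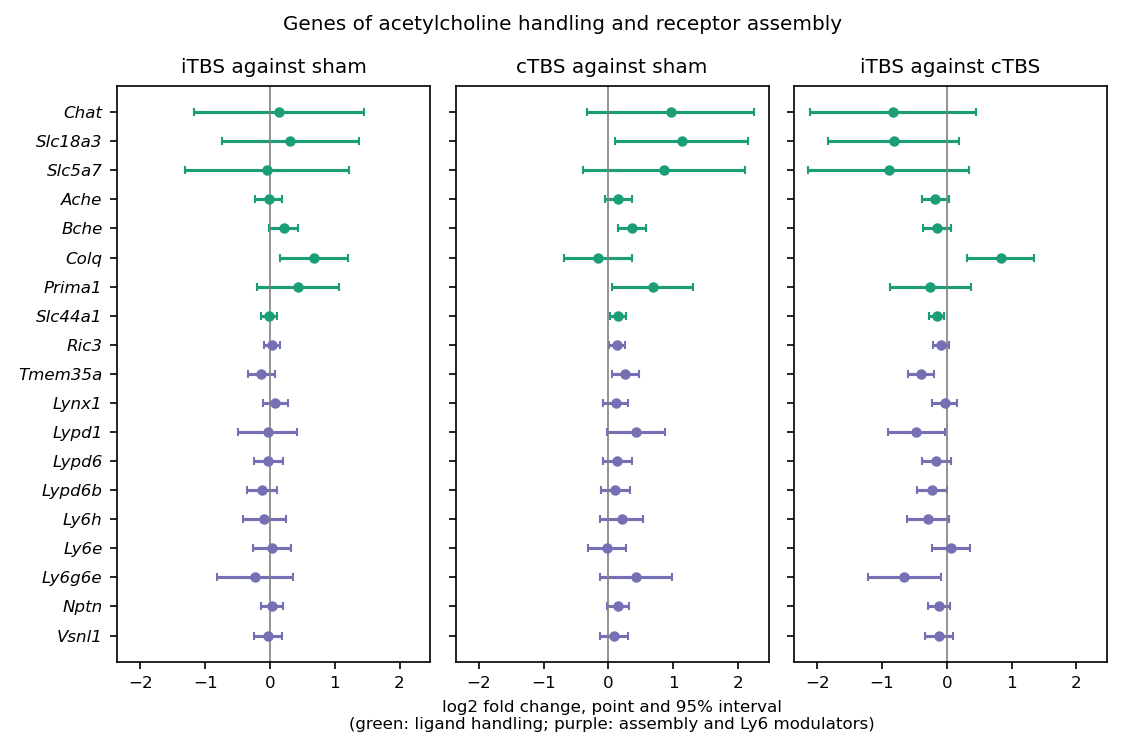
Log2 fold changes of the genes that make, clear and anchor acetylcholine (green) and of the assembly factors and Ly6 modulators of nicotinic receptors (purple) in the 3 comparisons. In cTBS over sham 7 of 8 and 10 of 11 points lie above 0, and in iTBS over cTBS 7 of 8 and 10 of 11 lie below it.

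Of the 28 signalling partners of muscarinic receptors, 16 were higher and 12 lower in iTBS than in sham (median 0.02). In cTBS over sham, 21 were higher and 7 lower (median 0.07; 24 and 4 with DESeq2, 23 and 5 with RLE scaling). In iTBS over cTBS, 9 were higher and 19 lower (median -0.03; 6 higher and 22 lower with DESeq2 or RLE scaling). Over all genes, 49.5%, 46.5% and 53.9% were higher in these comparisons and the medians were -0.000967, -0.02 and 0.03. At unadjusted p under 0.05, cTBS over sham held 3 higher and 1 lower, where 6.8% and 17.6% of all genes were. The last comparison held 1 higher and 6 lower, where 20% and 10.6% of all genes were. The 4 with the smallest p were Rgs14, Gnai3, Gnai2 and Kcnj6, all for iTBS over cTBS. Rgs14, which speeds the turn-off of Gi proteins, was at 34.6 ± 6.51 CPM in iTBS, 46.8 ± 4.15 in cTBS and 37.8 ± 4.66 in sham (-0.43 ± 0.12 between the protocols, edgeR, adjusted p = 0.0838). The Gi subunit genes Gnai3 and Gnai2, through which the Chrm2 and Chrm4 receptors signal, were at -0.20 ± 0.06 and -0.26 ± 0.08 (adjusted p = 0.0838 for both). In each, every iTBS value was below every cTBS value, and 3.92% of all genes had no overlap of these groups in either direction. Kcnj6, a subunit of the potassium channel that Gi-coupled receptors open, went the other way, at 77.3 ± 7.78 CPM in iTBS against 64.7 ± 4.91 in cTBS (0.26 ± 0.08, adjusted p = 0.0839).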

How the data were processed

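RNA libraries were made from total RNA with ribosomal depletion, per the labels' protocols, so nuclear RNA is included. The authors deposited raw counts per Ensembl gene, with no normalization, and values made stable in variance on a scale close to log2. The submitters' processing notes name fastp, STAR, DESeq2 and the build GRCm39 (mm39). Which role each tool had, the counter, the annotation and the strand setting are not stated there. Symbols came from an earlier assembly (52073 of 56748 identifiers, 97.7% of counts), as did the exon lengths behind levels per kilobase.

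Counts were tested with edgeR 4.0.16 (R 4.3.3): quasi-likelihood F test, TMM scaling, default expression filter by group (22998 genes, 99.9% of counts), all 15 libraries with a term per group and Benjamini-Hochberg adjustment over all genes at 0.05. The SE is the size of the fold change divided by the root of F. CPM used the TMM-scaled total, and log2 CPM a prior count of 2. A marker level is the mean log2 CPM of a list. Relations used 100000 permutations and two-sided p-values, adjusted within the 54 or the 36. The code was tested on simulated data. Alternatives were DESeq2 1.42.0, RLE scaling, no filter, limma 3.58.1 on the deposited values, other covariates and leaving out libraries.

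The members and lists were chosen with earlier results of these data known. Named genes were the 9 receptor genes, every tested gene of 3 pathway lists, the 4 muscarinic partners with the smallest p in any comparison, and the 3 genes most alike to each receptor gene, of which some are left out for the nicotinic genes. Marker genes, and partners called by DESeq2, were named after their values were seen. All 195 symbols on the lists were matched.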

Additional observations from a re-analysis of the deposited data

Results flagged for a closer look

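Sham 2 was far from the other sham libraries in Chrna3, at 3.21 CPM, with a gap to the nearest of 0.786 of the group's whole range (Dixon's limit for 5 samples is 0.71). It was the 1 library to stand apart in this way among 27 groups tested, the 9 receptor genes in 3 groups, and chance marks about 1 group in 20. Sham 3 came just short of the limit in Chrna7, as the lowest sham library with a gap of 0.7098. Chrnb4, the usual partner of Chrna3, Gpr151 and Prkcd were also highest in sham 2, while the habenular marker Tac2 was highest in cTBS 4 (5.68 against 5.61 CPM). Without sham 2 the iTBS against sham difference of Chrna3 was 0.0047.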

How the results depend on the processing

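Of 729 refitted fold changes of the 9 receptor genes, 639 kept their sign and their side of the threshold, 4 (all Chrm4, iTBS over cTBS) passed it and 86 changed sign, none of the latter past the threshold in either fit. The negative sign of Chrm4 for iTBS over cTBS and the positive sign of Chrna7 against sham held in every alternative run. DESeq2 called 362 genes for cTBS over sham and 2520 for iTBS over cTBS, where it called 1 receptor gene, Chrm4. Without each library in turn, the genes called ran from 0 to 5726 for cTBS over sham (5726 without sham 4) and from 0 to 4474 for iTBS over cTBS (3380 without cTBS 5, 4474 without iTBS 1, 3637 without sham 4), and the receptor genes called in the latter from 0 to 1. The cause was not tested. With the replicate number as a block, 5 genes were called for iTBS over cTBS, Chrm4 was at -0.43 (adjusted p = 0.0940), and no receptor gene was called in any comparison. Correlations of deviations could not decide whether the numbers pair the animals, since libraries with different numbers also share dissection and nuclear RNA levels. Of 15 pairs of libraries with the same number, 7 had a correlation above 0.1 (range -0.564 to 0.717). Pairs with different numbers ranged from -0.751 to 0.733, and 5 of 15 libraries correlated best with their own number. Of the 54 marker relations, 1 passed without the 2 farthest libraries and 3 passed without removal of group means (Chrm1 with upper layer, Chrnb2 and Chrm4 with layer 6 markers); of the 36 pairs, 0 passed without that removal.

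Log2 fold changes that changed sign were as follows. With DESeq2 they were Chrm2 0.0222 for cTBS over sham and Chrna4 -0.0352 and Chrna7 -0.0343 for iTBS over cTBS. RLE scaling gave Chrm2 0.0112 for cTBS over sham and Chrna4 -0.019 and Chrna7 -0.0173 for iTBS over cTBS. No expression filter gave Chrm2 0.0387 for cTBS over sham and Chrna4 -0.0482 and Chrna7 -0.046 for iTBS over cTBS. Limma-trend on the deposited values gave Chrm2 0.0253 for cTBS over sham and Chrna4 -0.03 and Chrna7 -0.0238 for iTBS over cTBS. Fits of the 2 groups alone gave Chrm2 0.0031 for cTBS over sham and Chrna4 -0.0046 and Chrna7 -0.0039 for iTBS over cTBS. With the library number as covariate they were Chrm1 0.0355 for iTBS over sham, Chrm2 0.0017 for cTBS over sham, and Chrm3 0.0046 for iTBS over cTBS. The nuclear RNA level gave Chrm1 -0.155, Chrm3 -0.0502 and Chrna5 -0.0418 for cTBS over sham and Chrm1 0.1451, Chrm3 0.1219, Chrna5 0.0276 and Chrna7 -0.0152 for iTBS over cTBS. The striatal level gave Chrm2 0.0234 for cTBS over sham and Chrna4 -0.0013 for iTBS over cTBS. Both levels gave Chrm1 0.0017 and Chrna5 0.0041 for iTBS over sham, Chrm1 -0.1214 and Chrnb2 -0.0429 for cTBS over sham, and Chrm1 0.1232, Chrm3 0.0488, Chrna7 -0.0013 and Chrnb2 0.0201 for iTBS over cTBS. The layer 6 level, an added alternative, gave Chrm1 0.0405, Chrna5 0.0799 and Chrnb2 0.0366 for iTBS over sham, Chrm1 -0.0682 for cTBS over sham, and Chrm1 0.1087, Chrm3 0.0628, Chrna5 0.0363 and Chrnb2 0.03 for iTBS over cTBS. Without sham 2, sham 5 and cTBS 4, the libraries high in choroid plexus Ttr, they were Chrna3 0.0736 and Chrnb2 0.0135 for iTBS over sham, Chrm1 -0.0506, Chrm2 0.076 and Chrna3 0.0212 for cTBS over sham, and Chrna7 -0.0599 for iTBS over cTBS. Without each library in turn, the values that crossed 0 ran over these ranges: Chrm1 -0.099 to 0.0696, Chrna3 -0.5123 to 0.0047, Chrna5 -0.1463 to 0.0713 and Chrnb2 -0.0441 to 0.0368 for iTBS over sham; Chrm1 -0.0456 to 0.155 and Chrm2 -0.0781 to 0.0539 for cTBS over sham; Chrm3 -0.1094 to 0.0169, Chrna3 -0.0257 to 0.1195, Chrna4 -0.0566 to 0.0269 and Chrna7 -0.0614 to 0.0288 for iTBS over cTBS. Depth limited Chrna3 and Chrna5 most, with as few as 17 and 50 counts in a library.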
